A study of Mus musculus with 4 samples.

Results

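The major histocompatibility complex class II pathway was read out in 10 genes across the immune cells of the mouse brain and dura mater. The genes were taken by symbol, and 10 of 10 were listed in each of the 4 libraries, among 17485 to 17862 listed genes per library and 19491 in all. Class II molecules are heterodimers of an alpha and a beta chain that carry peptides from the endosome to the cell surface, where CD4+ T cells read them. The invariant chain Cd74 holds the new dimer and guides it to the endosome, the dimer H2-DM exchanges the last piece of Cd74 for peptide, and the dimer H2-O restrains H2-DM. Ciita is the coactivator on which transcription of these genes depends, and dendritic cells, B cells and some macrophages are known to express it without stimulation.

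The study sorted CD45+ hematopoietic cells of adult C57BL/6J mice on day 3 and profiled them by droplet RNA sequencing of transcript 3′ ends. The groups were control brain, control dura, injured brain and injured dura, with 1 library in each. Controls are labelled CT and were taken as the sham-operated mice, whereas injured mice (INJ) received a photothrombotic injury that closes vessels of the dura, pia and brain under illuminated skull. The sort of the brain libraries is written "CD45-+" in the labels, and the number of mice per library is not given in the sources used here. With 1 library per group no comparison has a replicate check, so intervals are exact 95% intervals that cover counting error only.

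The kept cells numbered 2603 to 4438 per library, with a median of 8252 to 14269.5 unique molecular identifiers (UMIs, each standing for 1 captured transcript molecule). The injured libraries were the deeper ones in each tissue. Each cell was gated into a class by lists of marker genes, none of which is a class II gene, so every class name stands for "like" that cell type (cDC2-like, microglia-like), which is left out below. Between 68.9% and 76.9% of the kept cells of a library took a class, and 2431 of 14098 kept cells lay near a limit of the gate. Cells without a class held 29.97% to 45.7% of the H2-Aa, H2-Ab1 and H2-Eb1 UMIs of a library, most of them in cells with markers of several lineages, and these cells are not described further. Levels are UMIs per 1000000 UMIs of the class (CPM), not divided by gene length, because each transcript is counted once at its end.

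Of the members, 8 lie within 224 kb of the class II region of chromosome 17 in the build GRCm38, from H2-Oa (chr17:34092340-34095234) to H2-Eb1 (chr17:34305867-34316674). Within these bounds are H2-DMa (chr17:34119541-34139101), H2-DMb2 (chr17:34143307-34151555), H2-DMb1 (chr17:34153072-34160230), H2-Ob (chr17:34238903-34254414), H2-Ab1 (chr17:34257689-34269419) and H2-Aa (chr17:34282744-34287823). Ciita (chr16:10480059-10528418) and Cd74 lie on other chromosomes. Class II promoters are known for an X box and a Y box at a fixed spacing, which bind the RFX and NF-Y factors that Ciita joins. RefSeq promoters were at hand for 7 members. The stretch that holds both boxes is shown so that the members can be compared letter by letter. The capitals mark CNNNNAAC, a part of the X box, and ATTGG, the Y box, on the strand of the gene. Starts of the motifs lie between 30 and 40 bases apart.
H2-Aa (chr17:34287862-34287912, minus strand): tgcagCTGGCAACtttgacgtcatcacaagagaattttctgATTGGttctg
H2-Eb1 (chr17:34305768-34305817, plus strand): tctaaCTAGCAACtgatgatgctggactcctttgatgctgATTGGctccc
H2-DMb1 (chr17:34153089-34153139, plus strand): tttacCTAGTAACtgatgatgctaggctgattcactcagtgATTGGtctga
H2-DMb2 (chr17:34145118-34145168, plus strand): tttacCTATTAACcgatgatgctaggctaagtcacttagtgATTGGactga
H2-Oa (chr17:34092295-34092345, plus strand): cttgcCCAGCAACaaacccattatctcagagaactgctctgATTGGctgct
H2-Ob (chr17:34238810-34238857, plus strand): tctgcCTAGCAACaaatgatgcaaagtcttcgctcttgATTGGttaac

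The pair was found in 6 of the 7 members, with its first letter at −126 to −79 from the transcript start. Over 32851 RefSeq promoters of the same 300 bases, 1.46% held the pair on either strand, while 37.4% held ATTGG and 81.6% held CNNNNAAC. The 2 starts of H2-DMa held no pair in this window, and H2-Oa held a second, overlapping match. The letters were chosen after the promoters had been read, so the count is a description. A match is not a site in use, and the pair was present alike in H2-Aa and in H2-Ob, whose levels by class differ below.

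The antigen-presenting chains were highest in dendritic cells. H2-Aa, the alpha chain of the I-A molecule, stood in cDC2 at 11906 CPM in control brain, 13514 in control dura, 13091 in injured brain and 12583 in injured dura. The cDC1 followed with 10372 in control dura, 9139 in injured brain and 8915 in injured dura. All cDC2 libraries lay above all cDC1 libraries. The next class in order was the migratory dendritic cell, with 7168 in the 29 cells of injured brain. Lyve1- macrophages, the border macrophages with no Lyve1 UMI, had 8097 in control brain, 6528 in control dura, 5062 in injured brain and 6318 in injured dura, a range that overlaps that of the migratory cells.

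**Figure D1:**
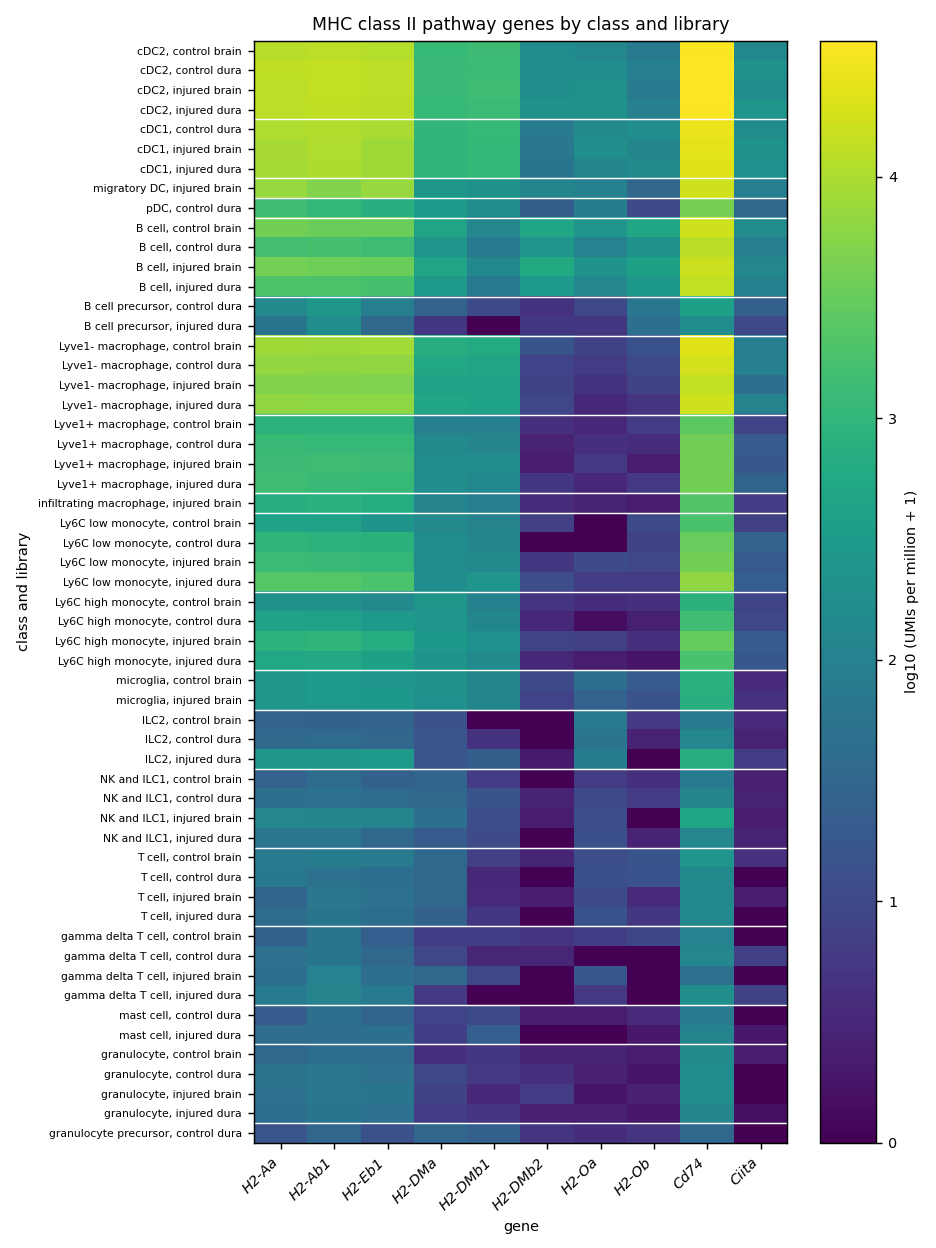
Levels (CPM) of the 10 member genes (columns) in every class and library with at least 20 cells (rows), coloured as log10 of the value plus 1. Dendritic cells and Lyve1- macrophages are bright for H2-Aa, H2-Ab1, H2-Eb1 and Cd74, while H2-Ob and H2-DMb2 are brightest in B cells.

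B cells had less of H2-Aa and split by tissue, with 3830.2 in control brain and 4059 in injured brain against 1599 in control dura and 1956 in injured dura. Ly6C low monocytes ranged from 421 in control brain to 2327 in injured dura, and Lyve1+ macrophages from 908 in control brain to 1376 in injured dura, so that these classes overlap each other, and the Ly6C low monocytes also overlap the B cells of the dura. The 26 plasmacytoid dendritic cells of control dura held 1416. Infiltrating macrophages of injured brain, named from Arg1, Gpnmb, Spp1 and other genes of the injury core, had 747 CPM. Ly6C high monocytes had 214 in control brain, 429 in control dura, 907 in injured brain and 543 in injured dura. Microglia, the resident phagocytes of the brain, had 258 in control and 264 in injured brain, between the Ly6C high monocytes of control brain and those of control dura. The levels of these low classes depend on how cells were named. H2-Aa in microglia of control brain was at 585 with clusters in place of the gate and at 557 with doublets and mixed cells kept, and in Ly6C high monocytes of control brain at 580.5 and 663.

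T cells and granulocytes, which are not known as makers of class II in the mouse, give the level at which free RNA and mixed droplets can place these genes. T cells held 28.3 to 71.9 CPM of H2-Aa and granulocytes 34.1 to 56.9. By the gate, microglia as a class stood above both by more than the counting error, and B cell precursors of the dura had 149 and 59.4. With doublets and mixed cells kept, T cells held 331 to 1140.5 and granulocytes 442 to 621, and T cells of injured brain then lay above microglia, at 510.4. The low level of T cells and granulocytes thus holds for cells without markers of another lineage. H2-Ab1, the beta chain of I-A, and H2-Eb1, the beta chain of I-E, followed H2-Aa. In cDC2 of control dura they stood at 14046 and 12776, and in microglia of control brain at 295 and 252. The alpha chain of I-E is not made in this strain, and no gene for it is among the members.

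Cd74 was the most abundant member in every class described above except the 21 B cell precursors of injured dura, where H2-Ab1 had slightly more UMIs. It ranged from 34017 to 36568 CPM in cDC2, from 14012 to 22192 in Lyve1- macrophages and from 12445 to 16912 in B cells. The ratio of Cd74 to H2-Aa UMIs was not the same in every class. It was 2.42 to 2.86 in conventional dendritic cells and 2.68 to 2.77 in Lyve1- macrophages. B cells had 4.42 and 3.94 in control and injured brain and 7.78 and 7.04 in control and injured dura. Ly6C low and Ly6C high monocytes of control brain, at 4.32 and 4.07, lay within the range of the brain B cells. The Cd74 levels of B cells thus overlapped those of Lyve1- macrophages, while their H2-Aa levels all lay lower.

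Ciita, the coactivator, stood at 133 to 242 CPM in cDC2, 158 to 213 in cDC1, 90.1 to 160.5 in B cells, 45.7 to 109.6 in Lyve1- macrophages and 7.62 to 28.8 in Lyve1+ macrophages. Microglia had 2.57 and 3.43 and infiltrating macrophages 5.31. Dendritic cells and B cells overlapped for Ciita, although all B cell libraries lay below all cDC2 libraries for H2-Aa.

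H2-DMa, the alpha chain of the peptide exchanger H2-DM, did not follow the class II chains at the low end. It stood at 1159 to 1244 CPM in cDC2 and 414 to 694 in Lyve1- macrophages. Microglia had 218.5 in control and 197 in injured brain, and Ly6C high monocytes 233 to 272. Both lay above the 95.8 to 176 of Lyve1+ macrophages, although H2-Aa was lower in both than in the Lyve1+ macrophages of the same library. As a share of H2-DMa and H2-Aa UMIs together, H2-DMa made up 45.9% and 42.7% in microglia and 23.0% to 55.0% in Ly6C high monocytes, but 7.03% to 7.89% in Lyve1- macrophages and 8.26% to 9.90% in conventional dendritic cells. In granulocytes H2-DMa was at 3.16 to 8.73 and in T cells at 24.2 to 32.4, below the microglial level in each library. H2-DMa overlaps Brd2 on the opposite strand and CR974462.3, annotated as an antisense gene, on its own strand. The strand setting of the counting is not given in the sources used here.

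H2-DM has 2 alternative beta chains, H2-DMb1 and H2-DMb2, and the classes differed in which of them they held. In B cells H2-DMb2 made up 79.2% of the beta chain UMIs in control brain (interval 77.1% to 81.2%), 75.3% in control dura (72.0% to 78.4%), 81.5% in injured brain (75.4% to 86.7%) and 79.7% in injured dura (74.4% to 84.3%). In cDC2 the share was 11.0% to 14.5%, in cDC1 5.004% to 6.12%, in Lyve1- macrophages 1.51% to 2.24% and in microglia 5.89% and 7.32%. The intervals of B cells were apart from those of every other class with at least 30 beta chain UMIs. The migratory dendritic cells of injured brain lay between, at 34.6% of 104 UMIs (25.6% to 44.6%). With clusters in place of the gate their H2-DMb1 fell from 214 to 78.0 CPM, so this share may depend on how cells were named. H2-DMb1 itself was at 75.5 to 136 CPM in B cells against 1264 to 1414 in cDC2. Over the last 500 bases of its transcript, 20.4% of the 50-base words of H2-DMb1 also occur in H2-DMb2. Of the words of H2-DMb2, 12.9% also occur in many other genes, H2-DMb1 not among them. The split between the pair carries both uncertainties. No shared words were found for H2-Aa, H2-Ab1, H2-Eb1, H2-DMa, H2-Oa, H2-Ob, Cd74 or Ciita.

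The subunits of H2-O, the inhibitor of H2-DM, were highest in B cells and dendritic cells. H2-Ob, its beta chain, stood at 473 CPM in B cells of control brain, 218 in control dura, 393 in injured brain and 269 in injured dura, against 75.6 to 96.6 in cDC2 and 125 to 169 in cDC1. Lyve1- macrophages held 3.97 to 13.4 and microglia 19.6 and 13.8. B cell precursors of control dura had 60.4, although their H2-Aa was at 149. The order of classes for H2-Ob was therefore not that for H2-Aa, with B cells above all dendritic cells.

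H2-Oa, the alpha chain of H2-O, had yet another order. It was at 106 to 242 CPM in B cells, 132 to 210.5 in cDC2 and 124 to 177 in cDC1, ranges that overlap. Type 2 innate lymphoid cells (ILC2) had 76.0, 55.8 and 80.9 in the 3 libraries with enough of them, where T cells had 11.5 to 13.2, and in these ILC2 H2-Ob was at 0 to 5.06. Microglia had 44.5 in control and 26.1 in injured brain. The share of H2-Ob among H2-O UMIs was 64.2% to 67.6% in B cells, 87.1% in B cell precursors of control dura, 41.4% to 54.6% in cDC1, 26.7% to 36.5% in cDC2, 30.5% and 34.7% in microglia and 0% to 6.25% in ILC2. In ILC2 of injured dura 0 of 72 H2-O UMIs were H2-Ob, which allows a share of up to 4.99%.

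**Figure D2:**
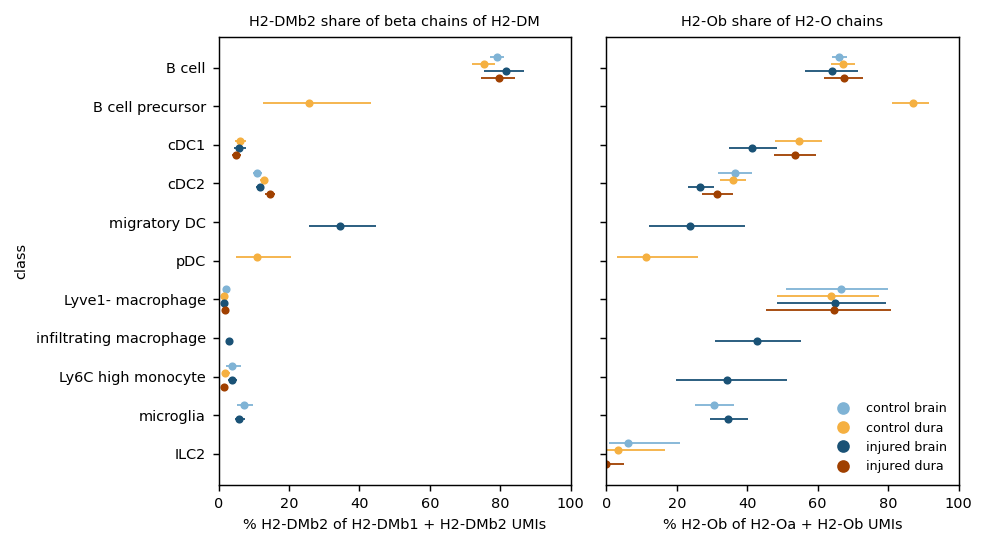
Share of H2-DMb2 among the beta chain UMIs of H2-DM (left) and of H2-Ob among the H2-O UMIs (right), in %, for each class and library with at least 30 such UMIs, with exact 95% binomial intervals. B cells stand apart at 75.3% to 81.5% on the left, and ILC2 lie near 0 on the right.

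Class means hide how the class II chains were spread over cells. The UMIs of H2-Aa, H2-Ab1 and H2-Eb1 were summed in each cell and divided by its total. In cDC2 the tenth and ninetieth percentiles were 288 and 525 per 10000 UMIs in control dura, so that each cell carried much. A cell with at least 20 per 10000 was called class II-high, a limit set after the data were seen. By this limit all cDC2 and all cDC1 were class II-high, and B cells at 93.7% in control brain, 57.1% in control dura, 95.3% in injured brain and 66.7% in injured dura.

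Monocytes, infiltrating macrophages and microglia were made of many cells near 0 and a few high ones. Infiltrating macrophages had a median of 1.02 per 10000, and 164 of 981 cells (16.7%, 14.4% to 19.2%) were class II-high and held 94.0% of the class II UMIs. H2-Aa was at 4591 CPM in the high cells and at 52.6 in the remaining ones, a difference that follows from the limit, since H2-Aa is part of the sum. The high cells had 252 CPM of summed cDC2 markers against 62.0 in the remaining ones, and 12486 against 24104 of summed markers of infiltrating macrophages. In Ly6C high monocytes 4.72% of cells were class II-high in control brain, 7.22% in control dura and 11.2% in injured dura, and 39 of 260 cells in injured brain.

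Microglia had 7 class II-high cells of 395 in control and 14 of 551 in injured brain, which held 88.2% and 85.3% of the class II UMIs. In the remaining microglia H2-Aa was at 23.9 and 28.7 CPM, next to 71.9 and 28.3 in T cells of the same libraries. H2-DMa in the same remaining microglia was still at 200.1 and 183.5. The class II-high microglia had a median of 27596 and 28145 UMIs against 9436 and 8978 in the remaining ones. In injured brain they held 793 CPM of summed Ly6C high monocyte markers against 95.2, and 571 of summed cDC2 markers against 33.3. The part of mixed droplets in these 21 cells was not tested.

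**Figure D3:**
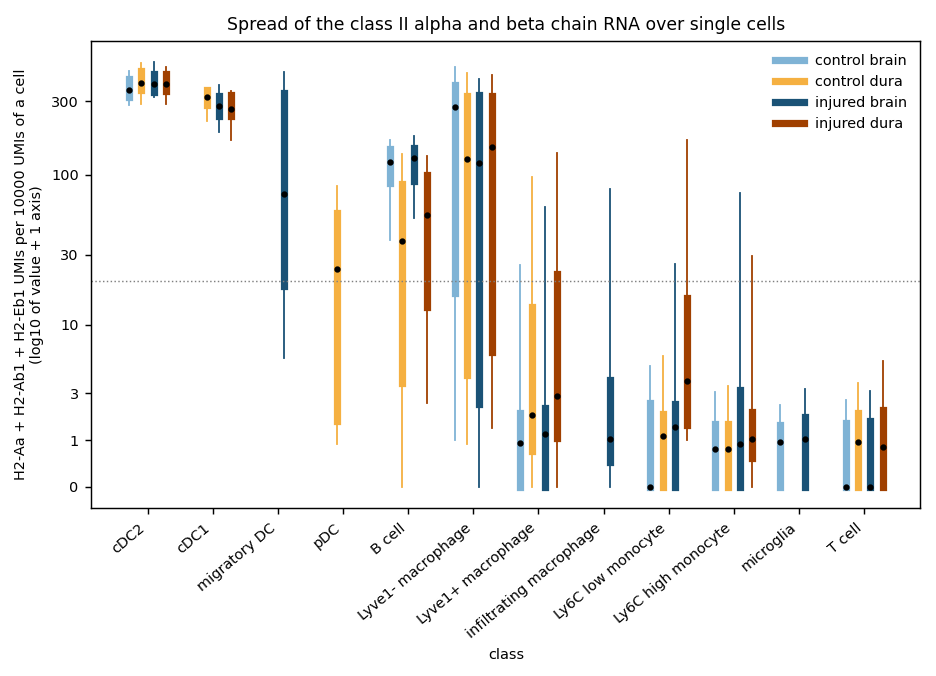
Summed H2-Aa, H2-Ab1 and H2-Eb1 UMIs per 10000 UMIs of a cell, by class and library, on a log axis of the value plus 1. Points are medians, thick bars run from the 25th to the 75th percentile and thin lines from the 10th to the 90th, and the dotted line marks 20 per 10000; cDC2 lie wholly above it and microglia almost wholly below.

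A single cell decided the level of 2 classes. In ILC2 of injured dura 1 cell of 31159 UMIs held 85.0% of the class II UMIs, and without it H2-Aa fell from 256 to 52.4 CPM. In T cells of control brain 1 cell held 51.2%, and without it H2-Aa was at 33.2. The ILC2 level of H2-Oa was at 80.3 without that cell.

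The study compared macrophages of the dura with and without Lyve1, a hyaluronan receptor of perivascular macrophages, and named class II genes as the difference on these same libraries, so the counts in control and injured dura are not independent evidence. Of the 7 members with at least 100 UMIs, 7 were at least 2-fold higher in the 256 Lyve1- than in the 177 Lyve1+ cells of control dura, where 1.87% of 6266 genes were. H2-Aa stood at 6528 against 1241 CPM, a log2 ratio of 2.39 (2.34 to 2.45). The median over the members was 2.15 against −0.14 over all genes. The largest ratio was that of H2-Eb1, 2.52 (2.46 to 2.58), and the lowest that of H2-Oa, 0.71, whose interval of −0.58 to 2.13 holds 0.

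The same held in the other libraries. In injured dura 7 of 7 members were at least 2-fold higher in Lyve1- cells, with 1.53% of all genes, and the median was 1.84. In control brain 7 of 7 were, with 4.28% of all genes and a median of 2.96, and in injured brain 7 of 7, with 3.39% and a median of 1.83. H2-Aa was 3.16 (3.06 to 3.26) higher on the log2 scale in control brain and 1.90 (1.84 to 1.97) in injured brain. Of the inhibitor, H2-Ob had 1.72 (0.51 to 3.16) in control dura but −0.27 (−1.18 to 0.61) in injured dura.

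Lyve1- macrophages were not uniformly rich in class II, nor Lyve1+ macrophages uniformly poor. Class II-high cells made up 74.9%, 64.5%, 63.1% and 67.0% of Lyve1- macrophages in control brain, control dura, injured brain and injured dura, and 10.7%, 22.6%, 12.5% and 25.8% of Lyve1+ macrophages. In control dura the share was 64.5% of cells with 0 Lyve1 UMIs, 23.7% with 1, 32.1% with 2 to 3 and 16.3% with 4 or more. In injured dura it was 67.0%, 39.0%, 33.3% and 18.3%. The first step, from 0 to 1 UMI, was thus the largest in both, and its intervals did not overlap. Among cells with 4 or more Lyve1 UMIs the share was 3.39% in control brain (0.413% to 11.7%) and 18.3% in injured dura (13.3% to 24.2%), which do not overlap either.

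**Figure D4:**
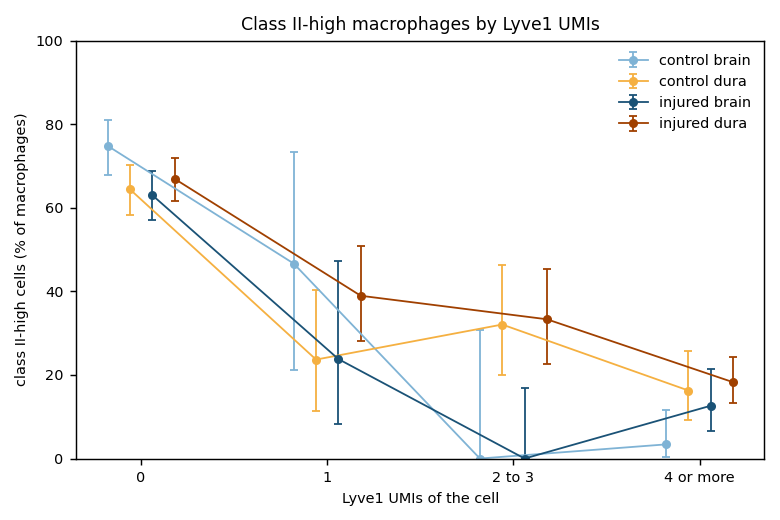
Class II-high cells as % of macrophages with 0, 1, 2 to 3 and 4 or more Lyve1 UMIs, by library, with exact 95% binomial intervals. The share falls from 63.1% to 74.9% at 0 UMIs to 3.39% to 18.3% at 4 or more.

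Taken as a sum, the cDC2 markers were lower in the Lyve1- than in the Lyve1+ macrophages of each library. In control dura Flt3, Ccr6 and Klrd1 were at 0 in the 40 class II-high Lyve1+ cells. All 10 markers were detected in the 165 class II-high Lyve1- cells, with Ccr6 lowest at 0.47 CPM. All 10 were also detected in the 92 class II-high Lyve1+ cells of injured dura. Detection of a rare marker depends on the number of cells, so these counts do not set the subsets apart. The cDC2 markers summed to 366.5 to 1116 CPM without and 776 to 1893 with Lyve1, against 4838 to 5901 in cDC2. Within the Lyve1- macrophages, class II-high cells had more of these markers than the remaining ones in 3 of 4 libraries, with 548 against 449 in control brain, 482 against 191 in injured brain and 1084 against 965 in injured dura. In control dura they had 1038 against 1290. All 12 macrophage markers were detected in both subsets of each library. The part of dendritic cells in these levels was not tested.

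Other genes of the pathway were read in the same cells. A list of 29 such genes held proteases that cut antigen and Cd74, costimulators, and factors that act with Ciita, and 27 of them are in the files. Of those with enough UMIs, 0 of 23 were 2-fold apart in either direction in control dura, 0 of 25 in injured dura and 0 of 21 in injured brain. With 1.53% to 3.39% of all genes higher at that fold in these comparisons, a count of 0 in lists of this size does not set them apart from other genes. Ctss, the protease that trims Cd74 in antigen-presenting cells, had a log2 ratio of 0.80 in control dura and 0.70 in injured dura. In control brain, where 4.28% of all genes were higher, 2 of 19 were, the costimulatory Cd83 at 1.56 and Icosl at 1.26. The proteases Ctsl at −1.66 and Ctsb at −1.13 were the 2 lower ones. The share of all genes lower at that fold was not computed for these comparisons.

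Injury was compared with control within each tissue. In the dura, macrophages as a whole had 3666 CPM of H2-Aa after injury and 4226 in control, a log2 ratio of −0.21 (−0.23 to −0.18). Of the 7 members with enough UMIs 0 were 2-fold apart, where 0.985% of 8935 genes were, and the median was −0.21. Ciita was at 66.3 against 63.8, with an interval of −0.13 to 0.24 that holds 0. Within the subsets the ratio of H2-Aa was −0.05 (−0.07 to −0.02) without Lyve1 and 0.15 (0.09 to 0.21) with it. Lyve1+ cells were 357 of 696 macrophages in injured and 177 of 433 in control dura, and the injured cells had more UMIs in which to find Lyve1.

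Macrophages of the brain, taken as a whole, had a lower level in the injured library. H2-Aa was at 4014 against 6006 CPM, a log2 ratio of −0.58 (−0.61 to −0.55), and Ciita had −0.86 (−1.14 to −0.57). The median was −0.60, while 0 of 7 members were 2-fold apart, with 2.83% of 7005 genes past that fold. By the gate the subsets went opposite ways. H2-Aa was at 5062 in injured and 8097 in control among Lyve1- macrophages but at 1355 and 908 among Lyve1+ macrophages. With clusters in place of the gate both were lower in the injured library, at 8043 against 8986 and 713 against 1541. With doublets and mixed cells kept the opposition stood, at 5146 against 7137 and 1967 against 1392. The top 9 of 84 control and 13 of 128 injured Lyve1+ cells held 96.5% and 94.6% of the class II UMIs. Markers of infiltrating macrophages moved with the comparison and summed to 3267 CPM in the macrophages of injured and 1067 in those of control brain. Among Lyve1- macrophages of injured brain they were at 1854 in class II-high cells and 5265 in the remaining ones, against 792 and 1247 in control brain, and their part in the result was not tested. Among the listed pathway genes the proteases Ctsd at 1.31 and Ctsl at 1.24 were higher and Icosl at −1.10 lower. This comparison was added after the data were seen, and its median was −0.32 with clusters in place of the gate and −0.29 when doublets and mixed cells were kept.

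**Figure D5:**
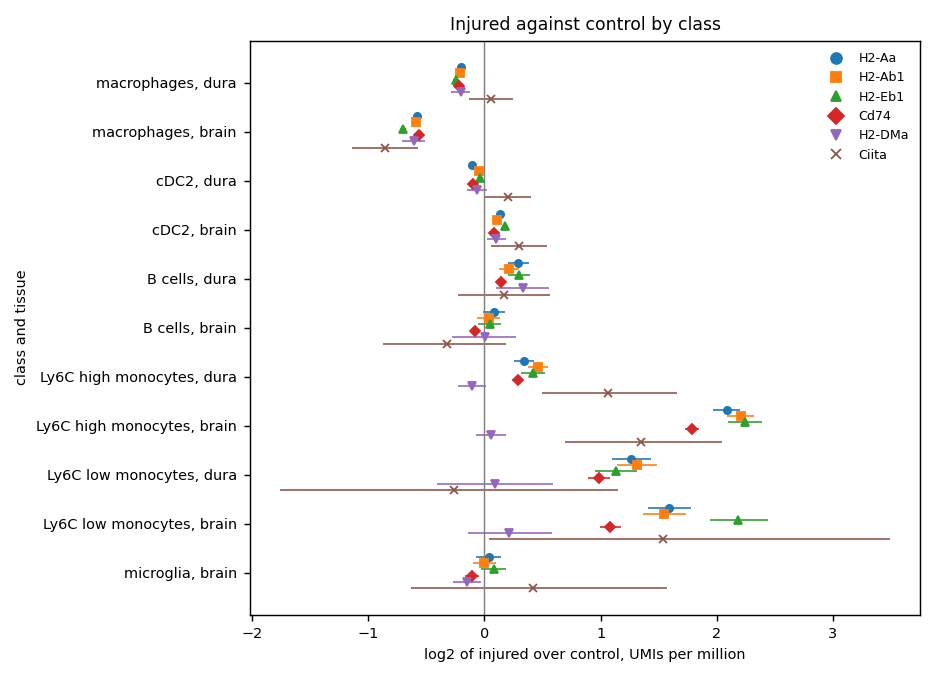
Log2 ratio of CPM in injured over control for H2-Aa, H2-Ab1, H2-Eb1, Cd74, H2-DMa and Ciita, by class, in brain and dura, with exact 95% intervals for counting error. Ly6C high monocytes of the brain reach 2.24 for H2-Eb1, and cDC2 lie close to 0.

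The class II levels of dendritic cells in injured and control libraries lay close together. In cDC2 of the dura 0 of 10 members were 2-fold apart between injured and control, with 2.05% of 4483 genes past that fold, and the median was −0.01. In cDC2 of the brain 0 of 10 were, with 2.55% of 4004 genes, and the median was 0.12. H2-Oa had the largest ratio in both tissues, 0.37 (0.15 to 0.58) in the dura and 0.65 (0.42 to 0.88) in the brain, and Ciita had 0.21 (0.01 to 0.40) and 0.30 (0.06 to 0.54). In cDC1 of the dura the median was −0.19.

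The low level of microglia was near the same in both brain libraries. H2-Aa had a log2 ratio of 0.04 (−0.07 to 0.14) between injured and control brain, and 0 of 9 members were 2-fold apart, where 6.64% of 8287 genes were. The members with intervals below 0 were H2-Oa at −0.77 (−1.06 to −0.48), H2-Ob at −0.50 (−0.92 to −0.08), H2-DMa at −0.15 (−0.27 to −0.03) and Cd74 at −0.11 (−0.17 to −0.05). The median of −0.09 lay beside −0.14 over all genes, and its sign was not stable, with 0.19 without the cell filter and −0.47 with clusters. Cst3, a cysteine protease inhibitor abundant in microglia, was lower by −1.14.

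Ly6C high monocytes of the brain had more class II in the injured library. H2-Aa was at 214 CPM in control and 907 in injured brain, a log2 ratio of 2.09 (1.97 to 2.20), H2-Eb1 had 2.24 (2.10 to 2.39) and Cd74 1.79 (1.73 to 1.85). Of 7 members 5 were at least 2-fold higher, where 3.07% of 6355 genes were. H2-DMa was not among them, at 0.06 (−0.07 to 0.19). The class II-high cells numbered 10 of 212 in control and 39 of 260 in injured brain, and H2-Aa within them was at 4950 and 5493. In the same comparison the summed macrophage markers were at 348 and 929.8 CPM, and in injured brain they were at 2551 in the class II-high cells and 625 in the remaining ones, and their part in the result was not tested. The comparison was added after the data were seen, and its median of 1.22 became 0.19 with clusters in place of the gate.

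In the other monocyte groups the ratios were smaller or the cells few. In Ly6C high monocytes of the dura 1 of 7 members, Ciita at 1.06 (0.49 to 1.65), was at least 2-fold higher after injury, where 0.989% of 7081 genes were, and H2-Aa had 0.34 (0.25 to 0.42). In Ly6C low monocytes of the brain 4 of 6 were, with 2.2% of 3411 genes, and H2-Aa had 1.59 (1.41 to 1.78) while H2-DMa had 0.21 (−0.14 to 0.58). These values rest on 4 class II-high cells of 71 in control and 22 of 209 in injured brain, and the 2-fold difference in H2-Aa was lost with clusters, at 1019 against 919 CPM, and with doublets and mixed cells kept, at 1501 against 1146. Summed macrophage markers were at 5112 in the class II-high cells of injured brain and 1507 in the remaining ones, and their part in the result was not tested. In the dura the median over the members was 0.99 in 48 control and 39 injured cells.

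Infiltrating macrophages of injured brain were set beside the monocytes and the Lyve1- macrophages of the same library. Against Ly6C high monocytes 3 of 7 members were at least 2-fold lower, H2-DMa at −1.33 (−1.43 to −1.22), H2-DMb1 at −1.12 and Ciita at −1.86 (−2.28 to −1.43), where 8.81% of 8964 genes were. H2-Eb1 was level at 0.02 (−0.04 to 0.08) and H2-Aa lower at −0.28 (−0.33 to −0.23). The direction of the median depends on how cells were named, −1.22 by the gate and 0.53 by clusters, where infiltrating macrophages held 1301 CPM of H2-Aa in 1537 cells and Ly6C high monocytes 646 in 199 cells. Of 25 listed pathway genes 6 were at least 2-fold higher and 6 lower by the gate, with a median of −0.34. Over all genes only the share lower, 8.81%, was computed, so the 6 higher stand without a share beside them. The higher ones included the proteases Ctsd at 3.88 and Ctsb at 3.32, and Ctsl, which is itself a marker of the gate for infiltrating macrophages. The lower ones included the interferon gamma receptor chain Ifngr1 at −1.56, the costimulator Cd80 at −1.26 and March1, a ubiquitin ligase that removes class II from the surface, at −1.21. Against Lyve1- macrophages 7 of 7 members were at least 2-fold lower, where 4.88% of 8928 genes were, with H2-Aa at −2.76 (−2.79 to −2.73) and Ciita at −3.11 (−3.46 to −2.76). Of 25 pathway genes 3 were higher and 9 lower at that fold. The share of all genes higher was not computed in this comparison either.

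B cells of control brain held more of the member genes than those of control dura. Of 10 members 6 were at least 2-fold higher, where 1.99% of 5337 genes were, and the median was 1.04 against −0.23 over all genes. H2-Aa had a log2 ratio of 1.26 (1.21 to 1.32), H2-Oa 1.19 (0.97 to 1.41), H2-Ob 1.11 (0.96 to 1.27) and Cd74 0.44 (0.42 to 0.46). Of 21 listed pathway genes 3 were at least 2-fold higher, March1 at 2.30, H2-Eb2 at 1.90 and Icosl at 1.49, and 0 lower. The median over the 21 was −0.03, with 9 higher and 6 lower beyond counting error. The comparison was added after the data were seen.

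The B cells of the 2 tissues differed in their makeup. A UMI of Ighd, the IgD heavy chain of mature naive B cells, was found in 88.8% of B cells in control brain and 64.6% in control dura. Among cells with an Ighd UMI, H2-Aa was at 4175 and 1986 CPM, a ratio of 1.07 (1.01 to 1.13), and the median over the members was 0.90. Among cells without one, H2-Aa was at 1664 and 912, a ratio of 0.87 (0.71 to 1.03), with a median of 0.80. Vpreb3, a gene of immature B cells, was still at 375 and 1036 CPM in the cells with Ighd, so stage was not matched by this split. Between injury and control the median was 0.29 in B cells of the dura and 0.02 in those of the brain.

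Over 56 groups of a class in a library with at least 20 cells, levels of other genes were set beside the summed class II chains. Among 9939 genes the highest Pearson correlations were those of Cd83 (0.872), Gm6377 (0.858), Slamf9 (0.847), Gdi2 (0.845) and Pkib (0.837). Of the members, Cd74 had 0.990, Ciita 0.939, H2-DMb1 0.913, H2-DMa 0.911, H2-DMb2 0.764, H2-Ob 0.631 and H2-Oa 0.494. For H2-Ob the highest were Trim7 (0.799), Siglecg (0.776) and Btla (0.775), with H2-DMb2 at 0.860 among the members. These lists depend on the B cell groups. In the 50 groups without them, Flt3 (0.779), Mycl (0.776) and Hepacam2 (0.773) led for H2-Ob. For the summed class II chains Slamf9 (0.889), Cxcl16 (0.888) and Tbc1d9 (0.879) then led. The groups share libraries and the classes recur across them, so these values are a description.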

How the data were processed

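CD45+ cells of 4 libraries, 1 per group, were analysed. Each deposited value is a natural log, ln(1 + x) with x the UMIs per 10000 UMIs of a cell, made by the authors with Cell Ranger 3.1.0 (mm10) and Seurat 3.1.0 per the submitters' processing notes. Whole UMIs were recovered from 100% of values (tolerance 1e-06). Cells with over 1000 and under 6000 genes entered, if no more than 7% of their UMIs were mitochondrial. Scrublet's own threshold marked at most 0.063% of cells, so the highest scores were removed instead, at 0.8% per 1000 barcodes (65 to 163 cells). Libraries shared 3 to 11 barcodes per pair.

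A cell took the class with the highest mean marker level if this was at least 0.3 with 4 markers detected, and no class if another lineage reached 0.5 of it with 3 markers, or another class of its lineage 0.85. UMIs were summed per class and library with at least 20 cells. The members, gene lists and tests were chosen with earlier results of these data known. All 10 members are named; other genes are the listed pathway genes past 2-fold and those most alike in level. A gene was called at 2-fold or more with at least 100 UMIs, and medians use members with at least 10 UMIs, those at 0 being set against 3 counts. No p-value is given. Intervals (exact Poisson or binomial, 95%) cover counting error only. The calculation was tested on simulated data. Alternatives were a stricter gate, clusters, doublets and mixed cells kept, no filter, thinning to 2000 UMIs per cell, the mean over cells, 0.5 UMI added to every member, T cell levels subtracted, and proliferating cells or cells with 1 Lyve1 UMI left out. Python 3.11.15, scanpy 1.11.5, scipy 1.17.1 and leidenalg 0.10.2 were used.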

Additional observations from a re-analysis of the deposited data

Results flagged for a closer look

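In cDC2 the injured over control ratio had opposite signs in the 2 tissues for 4 members. On the log2 scale H2-Aa had −0.10 in the dura and 0.14 in the brain, H2-Ab1 −0.0495 and 0.11, H2-Eb1 −0.0398 and 0.17, and Cd74 −0.10 and 0.0780. In B cells Cd74 had 0.15 in the dura and −0.0817 in the brain. Each value rests on 1 library per group, and the difference between the tissues was not tested.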

How the results depend on the processing

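Single levels were sensitive to which cells entered a class: 141 of 418 moved by over 1.5-fold with doublets and mixed cells kept, 136 of 398 with clusters and 1 of 415 with the stricter gate. The number of groups with H2-Aa over 1000 CPM was 22 as reported, 28 with doublets and 25 with clusters. Of all alternatives, 62 left the median over the members within its counting interval, or that number within 1.5-fold. Another 33 moved it and 1 reversed it. A reversal was counted only where the interval of the median excluded 0. Changes of sign in microglia, and in cDC2 of the dura when thinned (0.0528), are therefore not counted as reversed. In some comparisons the stricter gate kept the same cells and could not move the median. No cause was tested. Lyve1- against Lyve1+ macrophages of control dura ranged from 1.96 to 2.42. In injured dura 1.84 became 2.01 with clusters, 2.07 without cells of 1 Lyve1 UMI, 2.20 thinned and 2.04 with T cell levels subtracted. Dura macrophages, injured against control, moved from −0.21 to −0.0346 with doublets and mixed cells kept, −0.35 without the cell filter and −0.10 without proliferating cells, and brain macrophages from −0.60 to −0.32 with clusters, −0.29 with doublets, −0.72 without the filter, −0.52 thinned and −0.52 as the mean over cells. For cDC2 of the dura −0.01 became −0.23 with clusters and −0.0754 with doublets. B cells of brain against dura moved from 1.04 to 0.87 with clusters, 0.88 without the filter, 0.92 without proliferating cells and 0.93 thinned. Microglia moved from −0.09 to −0.47 with clusters, 0.19 without the filter, 0.12 without proliferating cells, 0.25 as the mean over cells and 0.10 with T cell levels subtracted. Infiltrating macrophages against Ly6C high monocytes turned from −1.22 to 0.53 with clusters, and were −0.37 with doublets, −1.45 without proliferating cells and −0.26 thinned. Against Lyve1- macrophages −2.52 became −2.19 with doublets, −2.21 without the filter, −2.66 thinned and −2.70 with T cell levels subtracted. Ly6C high monocytes of the brain moved from 1.22 to 0.19 with clusters, 0.49 with doublets and 2.17 with T cell levels subtracted. The comparisons of brain macrophages, B cells of brain with dura, Ly6C high monocytes of the brain, and infiltrating with Lyve1- macrophages, and the limit for class II-high cells, were chosen after seeing the data. Some further comparisons were not set beforehand either, and their medians were not recomputed under the alternatives. They are the Lyve1 subsets in the brain libraries, the dura subsets, cDC2 of the brain and cDC1. The others are Ly6C low monocytes, Ly6C high monocytes of the dura and B cells by injury. With 1 library per group, no library could be left out, and spread between animals is unknown.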
